A study of Saccharomyces cerevisiae with 10 samples.

Results

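Budding yeast exposed to 1.5 M KCl was compared at a late and an early time of the same exposure, 2 h against 0.5 h. The libraries were chosen by their labels alone: all those labelled as 1.5 M KCl for 2 h and all those labelled as 1.5 M KCl for 0.5 h, which are 4 of the 10 libraries of the series. Each time has 2 libraries, lettered a and b after the 2 replicate time series that the design describes as independent. All libraries come from strain BY4741, a haploid of mating type MATa labelled wild type that carries deletions in HIS3, LEU2, MET17 and URA3, grown in synthetic complete medium at 30 °C to an OD600 of 0.4 to 0.5 before salt. No other genotype or agent separates the 2 groups, so that the time spent in salt is the labelled difference. The only unstressed libraries of the series are at 0 h, so time in salt cannot be told apart from time in culture. Polyadenylated RNA was sequenced, and reads per coding sequence were deposited.

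High salt draws water out of yeast cells and loads them with ions. The cells answer through the HOG pathway, in which the membrane sensors Sho1 and Sln1 lead to the kinase Hog1, which enters the nucleus, switches on genes for glycerol synthesis and glycerol import, and delays the cell cycle. A wider stress program runs beside it: the factors Msn2 and Msn4 bind the stress response element (STRE) and raise genes for trehalose, antioxidants and chaperones, while ribosomal protein and ribosome assembly genes, the largest expense of a growing cell, are turned down. In very strong salt the transcriptional answer is known to start later than in mild salt. The comparison of 2 h with 0.5 h asks which transcripts changed between these states of the same exposure.

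The change between the times can be read beside short sequences that lie upstream of the genes. For 7 genes on which the results turn, 150 bases of the RefSeq R64 reference are given from 5′ to 3′ on the coding strand of the gene, ending 100 bases before the start codon. Capitals mark the matches of 1 motif in each, which is CCCCT (STRE) or its reverse complement for HSP12, NQM1 and TAL1, GGTGGCAAA (PACE, bound by the proteasome gene activator Rpn4) for UBI4, GATGAG (PAC, found at ribosome assembly genes) for GAR1 and URA7, and ACGCGT (MCB, bound by the G1/S factor MBF) for POL30. HSP12 and NQM1 are shown because they were among the largest rises, and TAL1 because it is the paralog of NQM1, also holds an STRE and did not pass the test. The other sequences each hold the motif shown and belong to genes with large changes, so they do not stand for whole gene lists. UBI4 changed by 3.38 on the log2 scale beside a median of 1.07 for its list, and GAR1 by −2.46 beside −1.62. URA7 changed by −2.62 beside −0.94 for purine and pyrimidine synthesis, where 9 of 32 genes rose. POL30 changed by −1.62 beside −0.50 for DNA replication, where 7 of 57 rose.
HSP12: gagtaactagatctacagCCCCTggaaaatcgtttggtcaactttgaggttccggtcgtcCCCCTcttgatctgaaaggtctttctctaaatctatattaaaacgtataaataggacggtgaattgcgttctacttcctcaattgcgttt
NQM1: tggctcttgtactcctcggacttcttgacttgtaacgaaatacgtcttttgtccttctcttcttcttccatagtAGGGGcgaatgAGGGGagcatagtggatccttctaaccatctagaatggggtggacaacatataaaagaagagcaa
TAL1: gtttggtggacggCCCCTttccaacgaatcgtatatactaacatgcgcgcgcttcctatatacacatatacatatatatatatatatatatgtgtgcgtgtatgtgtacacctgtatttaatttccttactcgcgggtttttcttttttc
UBI4: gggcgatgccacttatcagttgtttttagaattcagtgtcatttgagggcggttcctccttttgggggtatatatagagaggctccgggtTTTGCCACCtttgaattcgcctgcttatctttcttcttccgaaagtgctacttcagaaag
GAR1: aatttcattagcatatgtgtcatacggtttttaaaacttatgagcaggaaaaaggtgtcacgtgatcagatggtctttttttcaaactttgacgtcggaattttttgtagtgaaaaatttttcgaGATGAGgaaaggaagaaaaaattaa
URA7: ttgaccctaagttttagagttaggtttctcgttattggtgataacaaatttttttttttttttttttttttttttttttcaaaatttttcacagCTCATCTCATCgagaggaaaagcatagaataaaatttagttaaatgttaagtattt
POL30: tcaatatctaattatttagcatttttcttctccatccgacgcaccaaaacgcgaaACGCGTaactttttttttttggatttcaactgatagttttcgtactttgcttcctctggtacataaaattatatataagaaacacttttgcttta
In R64 coordinates these stretches are chrVI:107006-107155 for HSP12 on the plus strand and, on the minus strand, chrVII:581537-581686 for NQM1, chrXII:837458-837607 for TAL1, chrXII:65308-65457 for UBI4, chrVIII:283399-283548 for GAR1, chrII:145829-145978 for URA7 and chrII:425867-426016 for POL30. The STRE matches of HSP12 begin 232 and 190 bases before its start codon, those of NQM1 176 and 165 bases before, and the single match of TAL1 237 bases before. The PACE match of UBI4, which reads on the other strand, begins 160 bases before the start codon. The single PAC match of GAR1 begins 125 bases before, and the 2 overlapping PAC matches of URA7, which also read on the other strand, 156 and 151 bases before. The MCB match of POL30 begins 195 bases before. These are matches of letters, and binding was not measured.

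The libraries of series a held 4913739 reads at 0.5 h and 3372373 at 2 h, and those of series b 8325291 and 8016636. Levels are given as CPM (read counts scaled to the library's total after adjustment by TMM factors). The factors ran from 0.8765 to 1.1613 over the libraries, so CPM are relative levels and not plain shares of a library's reads. A small change in CPM can therefore differ in sign from the change in share of reads. Percentages of reads were taken without the factors. How much RNA a cell held is not known. In such bulk samples fewer cells of a type and less RNA per cell cannot be told apart. The first principal component of the 10 libraries held 79.1% of the variance and placed the 0.5 h libraries at −47.2 and −46.8, the 2 h libraries at 39.1 and 38.7, and the unstressed 0 h libraries at −35.9 and −35.1. Reading frames antisense to the ribosomal RNA genes took 0.512% and 0.545% of reads at 0.5 h and 0.558% and 0.614% at 2 h, beside 0.0556% and 0.0599% at 0 h and 1.13% and 1.14% at 1 h. Whether these reads are ribosomal RNA was not tested.

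The 0.5 h library of series a stands apart in 1 respect. URA3, which the strain lacks, had 162 reads there (37.6 CPM), 0 reads in the 0.5 h library of series b, and at most 5 reads in any of the 9 other libraries, which held 15 together. LEU2 and MET17 had 0 reads in every library, and HIS3 at most 7. Of 5492 genes with a mean of at least 8 CPM at 0.5 h, 2 differed by at least 2-fold between the libraries after 1 CPM was added, URA3 and the mating gene FIG1, while at 2 h 0 of 5692 did. FIG1, named after its values were seen, had 20.9 CPM in that library and 2.85 CPM in the other at 0.5 h, against 7.58 and 8.82 CPM at 2 h. Its log2 fold change was −0.27 (adjusted p = 0.6) with the library and 1.55 (adjusted p = 0.0001) without it. Without the library 4565 genes were called in place of 4802, of which 4522 were called in both, each in 1 direction.

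Of 5943 genes tested, 4802 (80.8%) were called between the times at an adjusted p below 0.05 by the two-sided quasi-likelihood F-test of edgeR, 2571 (43.3%) higher at 2 h and 2231 (37.5%) lower. At an unadjusted p below 0.05 there were 4851. Counts in each gene list are to be read beside the 43.3% and 37.5% of all genes. Calls that also reached a 2-fold change numbered 1075 (18.1%) higher and 800 (13.5%) lower. The median log2 fold change of all genes tested was 0.07, with quartiles at −0.53 and 0.73, and called genes had a median absolute change of 0.80. Rises reached further than falls: 382 genes were at least 4-fold higher and 106 at least 4-fold lower, and 44 were at least 16-fold higher while 0 were at least 16-fold lower. The share of called genes that were higher was 53.5%, and it was 71% when libraries were scaled by their read totals alone, which moves the median of all genes up by 0.36. In 4797 of the 4802 called genes the change had 1 direction in both series. The 2 times did not overlap in 5331 (89.7%) of the genes tested, so a lack of overlap does not set a gene apart. The p-values rest on the spread between the 2 libraries of each time, estimated over all 10 libraries of the series.

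Where the other times of the exposure lie was described for the genes that changed at least 2-fold, with no test, since the 0.5 h and 2 h values chose them. Of the 1075 that were higher at 2 h, 792 (73.7%) had their lowest mean at 0.5 h and 264 at 0 h, and 578 (53.8%) had their highest mean at 1.5 h against 442 (41.1%) at 2 h. Of the 800 that were lower, 715 (89.4%) had their highest mean at 0.5 h, and 567 (70.9%) had their lowest at 1.5 h against 231 (28.9%) at 2 h. The unstressed level lay between the 0.5 h and 2 h levels in 771 (71.7%) of the genes that were higher and in 747 (93.4%) of those that were lower. The 10 most abundant genes took 9.79% and 9.54% of reads at 0.5 h and 6.23% and 6.24% at 2 h.

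**Figure D1:**
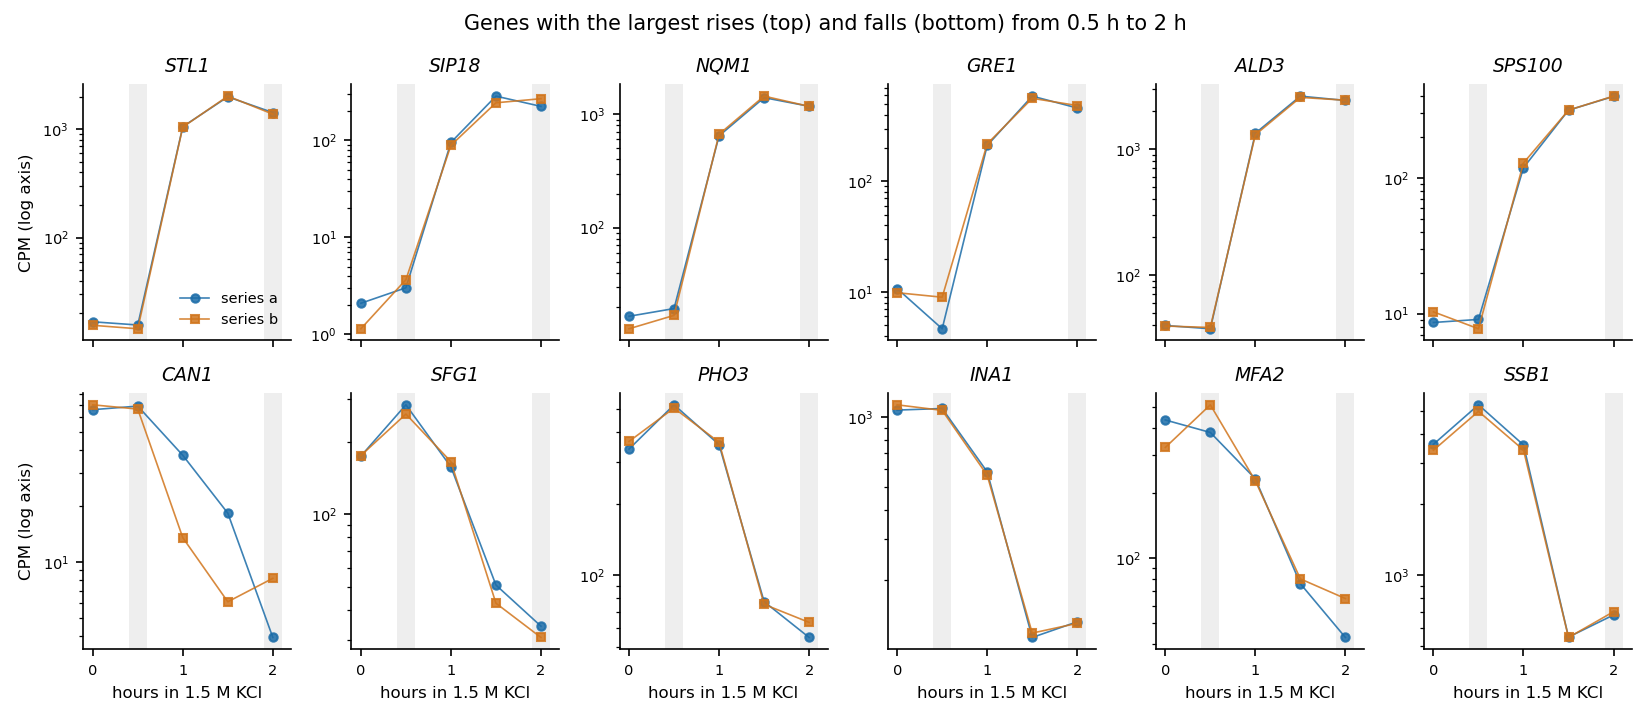
Level (CPM, log axis) of 6 genes with the largest rises and 6 with the largest falls in each library against hours in 1.5 M KCl, with 1 line for each replicate series and grey bands at the 2 times compared. STL1 goes from 15.6 and 14.4 CPM at 0.5 h to 1423 and 1376 CPM at 2 h, SSB1 is highest at 0.5 h, and the lines of CAN1 cross.

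The largest rise belonged to STL1, the plasma membrane glycerol/proton symporter that imports glycerol (chrIV:1508005-1509714, plus strand). It had 15.6 and 14.4 CPM at 0.5 h and 1423 and 1376 CPM at 2 h, from 173 and 17923 reads over both libraries (log2 fold change 6.56 ± 0.08 (SE), adjusted p = 1.3e-22). Both 2 h values lay far above both 0.5 h values, and replicates were close to each other. Next in size came SIP18, a hydrophilin induced by osmotic stress (chrXIII:611016-611255, plus strand), which had 3.02 and 3.66 CPM at 0.5 h and 225 and 270 CPM at 2 h (log2 fold change 6.19 ± 0.16 (SE), adjusted p = 1.2e-17). The transaldolase paralog NQM1 (chrVII:580435-581436, minus strand) had 19.3 and 16.8 CPM at 0.5 h and 1178 and 1176 CPM at 2 h (log2 fold change 6.05 ± 0.08 (SE), adjusted p = 2.2e-21). Only genes whose groups did not overlap could rank among the 12 largest rises or falls. The lack of overlap in these genes was therefore set by the choice. GRE1, a hydrophilin paralog of SIP18, had 4.64 and 8.95 CPM at 0.5 h and 460 and 484 CPM at 2 h (log2 fold change 6.01 ± 0.11 (SE), adjusted p = 6.9e-20). It was nearly 2-fold apart between the 0.5 h libraries, at few reads, and the 2 h libraries lay well above both. Without the 0.5 h library of series b its log2 fold change was 6.66.

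The aldehyde dehydrogenase gene ALD3 had 37.4 and 38.3 CPM at 0.5 h and 2417 and 2427 CPM at 2 h (log2 fold change 6.0 ± 0.06 (SE), adjusted p = 9.3e-23), and its neighbour and near copy ALD2 had 20.2 and 24.1 CPM at 0.5 h and 666 and 676 CPM at 2 h (log2 fold change 4.89 ± 0.08 (SE), adjusted p = 1.5e-20). The similar sequences of ALD2 and ALD3 can share reads, and how such reads were assigned is not given in the sources used here. HSP12, which encodes a small membrane-protecting protein and is a standard readout of the STRE (chrVI:107256-107585, plus strand), had 159 and 155 CPM at 0.5 h and 6443 and 6945 CPM at 2 h (log2 fold change 5.42 ± 0.06 (SE), adjusted p = 1.3e-22). Both 2 h libraries lay above both 0.5 h libraries, which the ranking required. CTT1, the cytosolic catalase, had 31.8 and 28.6 CPM at 0.5 h and 939 and 913 CPM at 2 h (log2 fold change 4.95 ± 0.07 (SE), adjusted p = 3.4e-21), again with no overlap. The other genes among the 12 largest rises were SPS100, a spore wall gene (5.60), SPG4, needed in stationary phase (5.19), LSO1, a small protein gene induced when iron is short (5.14), and YMR175W-A (5.06), a short reading frame of unknown role that lies beside SIP18. At 0.5 h LSO1 and YMR175W-A had at most 2.32 CPM, so their folds rest on few reads, and that of LSO1 was 6.0 without the 0.5 h library of series b.

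The largest fitted fall belonged to CAN1, the arginine permease (chrV:31694-33466, minus strand), which had 69 and 66.5 CPM at 0.5 h and 3.92 and 8.16 CPM at 2 h (log2 fold change −3.30 ± 0.35 (SE), adjusted p = 3.7e-08). Both 2 h libraries lay below both 0.5 h libraries, but the 2 h libraries were themselves 2-fold apart at a low level, and the log2 fold change was −4.10 without that of series b and −3.05 without that of series a. Its rank rests on series a, where the change was −3.97. In series b it was −2.95, less than that of SFG1 (−3.06). PHO3, a constitutive acid phosphatase, had 520 and 504 CPM at 0.5 h and 54.9 and 63.5 CPM at 2 h (log2 fold change −3.08 ± 0.07 (SE), adjusted p = 9.2e-19). SFG1, a factor of pseudohyphal growth, had 284 and 260 CPM at 0.5 h and 34.3 and 30.8 CPM at 2 h (log2 fold change −3.09 ± 0.08 (SE), adjusted p = 1.2e-17). Libraries of each time lay close together for both genes, and the times did not overlap, which the ranking required. SSB1, an Hsp70 that binds nascent chains at the ribosome, had 5299 and 4972 CPM at 0.5 h and 679 and 701 CPM at 2 h (log2 fold change −2.89 ± 0.05 (SE), adjusted p = 5.2e-20). HO, the mating type switching endonuclease gene, which is expressed in late G1 and is inactive in laboratory strains, had 197 and 194 CPM at 0.5 h and 28 and 27.2 CPM at 2 h (log2 fold change −2.83 ± 0.08 (SE), adjusted p = 1.5e-17). In neither did the times overlap, which the ranking also required. The other large falls were those of the helicase gene DBP2 (log2 fold change −2.78), the membrane protein genes INA1 (−3.03) and MRH1 (−2.80), the cell wall gene SCW4 (−2.86), LIA1, the hydroxylase that matures translation factor eIF5A (−2.70), and the a-factor genes MFA2 (−2.98) and MFA1 (−2.82), whose similar sequences can share reads.

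Genes listed as osmostress targets mostly rose. The lists were chosen with earlier results of these data known, so counts in them partly reflect that choice. Activity of Hog1 was not measured. Among 47 osmostress targets 44 rose, 42 of them at least 2-fold, and 2 fell, with a median log2 change of 3.41 beside 0.07 for all genes tested. The falls were small and not stable: CHA1 (−0.24) was not called without the 2 h library of series b or the 0.5 h library of series a, and SED1 (−0.11) was not called without either 2 h library, without the 0.5 h library of series a, with upper-quartile factors or with a filter of 10 CPM. The 47 targets together took 0.851% and 0.844% of reads at 0.5 h and 5.45% and 5.60% at 2 h. For glycerol and dihydroxyacetone metabolism 14 of 16 genes rose and 1 fell (median 1.46). GPD1, the NAD-dependent glycerol-3-phosphate dehydrogenase that commits carbon to glycerol, had 376 and 383 CPM at 0.5 h and 2862 and 3017 CPM at 2 h (log2 fold change 2.95 ± 0.05 (SE), adjusted p = 1.5e-20). GPP2, the phosphatase of the next step, had 153 and 149 CPM at 0.5 h and 1949 and 2029 CPM at 2 h (log2 fold change 3.72 ± 0.06 (SE), adjusted p = 4.1e-21). For both enzymes the times did not overlap, which was so for 89.7% of all genes tested. The gene that fell was GPD2, the isoform known for redox balance without oxygen, with 248 and 253 CPM at 0.5 h and 162 and 172 CPM at 2 h (log2 fold change −0.58 ± 0.05 (SE), adjusted p = 5.3e-09).

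The genes that encode the HOG pathway itself moved less. Of 25, 12 rose and 5 fell, beside 43.3% and 37.5% of all genes tested, with a median of 0.17 near that of all genes. PTP2, a phosphatase that switches Hog1 off, had 56.9 and 59.8 CPM at 0.5 h and 159 and 153 CPM at 2 h (log2 fold change 1.40 ± 0.07 (SE), adjusted p = 2.8e-13), and SMP1, a transcription factor phosphorylated by Hog1, rose by 1.19 on the log2 scale. The osmosensors of the Sho1 branch were on the other side: MSB2 had 301 and 280 CPM at 0.5 h and 143 and 136 CPM at 2 h (log2 fold change −1.06 ± 0.06 (SE), adjusted p = 2e-12), and SHO1 had 90.6 and 90.3 CPM at 0.5 h and 48.6 and 49.4 CPM at 2 h (log2 fold change −0.88 ± 0.08 (SE), adjusted p = 3.1e-09). In all 4 genes the times did not overlap, which was so for 89.7% of all genes tested.

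Stress protectants were higher at 2 h. Of 28 hydrophilins and other small stress proteins 26 rose and 2 fell, with a median of 3.59. Some of these genes are also osmostress targets. For trehalose and glycogen 23 of 24 genes rose, 20 at least 2-fold, and 1 fell (median 2.09). TSL1, a regulatory subunit of trehalose synthase, had 114 and 106 CPM at 0.5 h and 1089 and 1089 CPM at 2 h (log2 fold change 3.31 ± 0.06 (SE), adjusted p = 7.7e-20). PGM2, the main phosphoglucomutase, which supplies glucose-1-phosphate, had 59 and 57.5 CPM at 0.5 h and 659 and 652 CPM at 2 h (log2 fold change 3.49 ± 0.07 (SE), adjusted p = 1.1e-19), and GIP2, thought to target a phosphatase to glycogen synthase, rose by 3.38. Both libraries of 2 h were above both of 0.5 h in each, and the times did not overlap in 89.7% of all genes tested. The gene that fell was PGM1, the minor phosphoglucomutase, with a log2 change of −1.11. Among 39 genes of oxidative stress defence 29 rose and 5 fell (median 1.06), and OYE3, an NADPH oxidoreductase, had 2.09 and 2.03 CPM at 0.5 h and 53.6 and 56.3 CPM at 2 h (log2 fold change 4.74 ± 0.18 (SE), adjusted p = 2.8e-15).

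**Figure D2:**
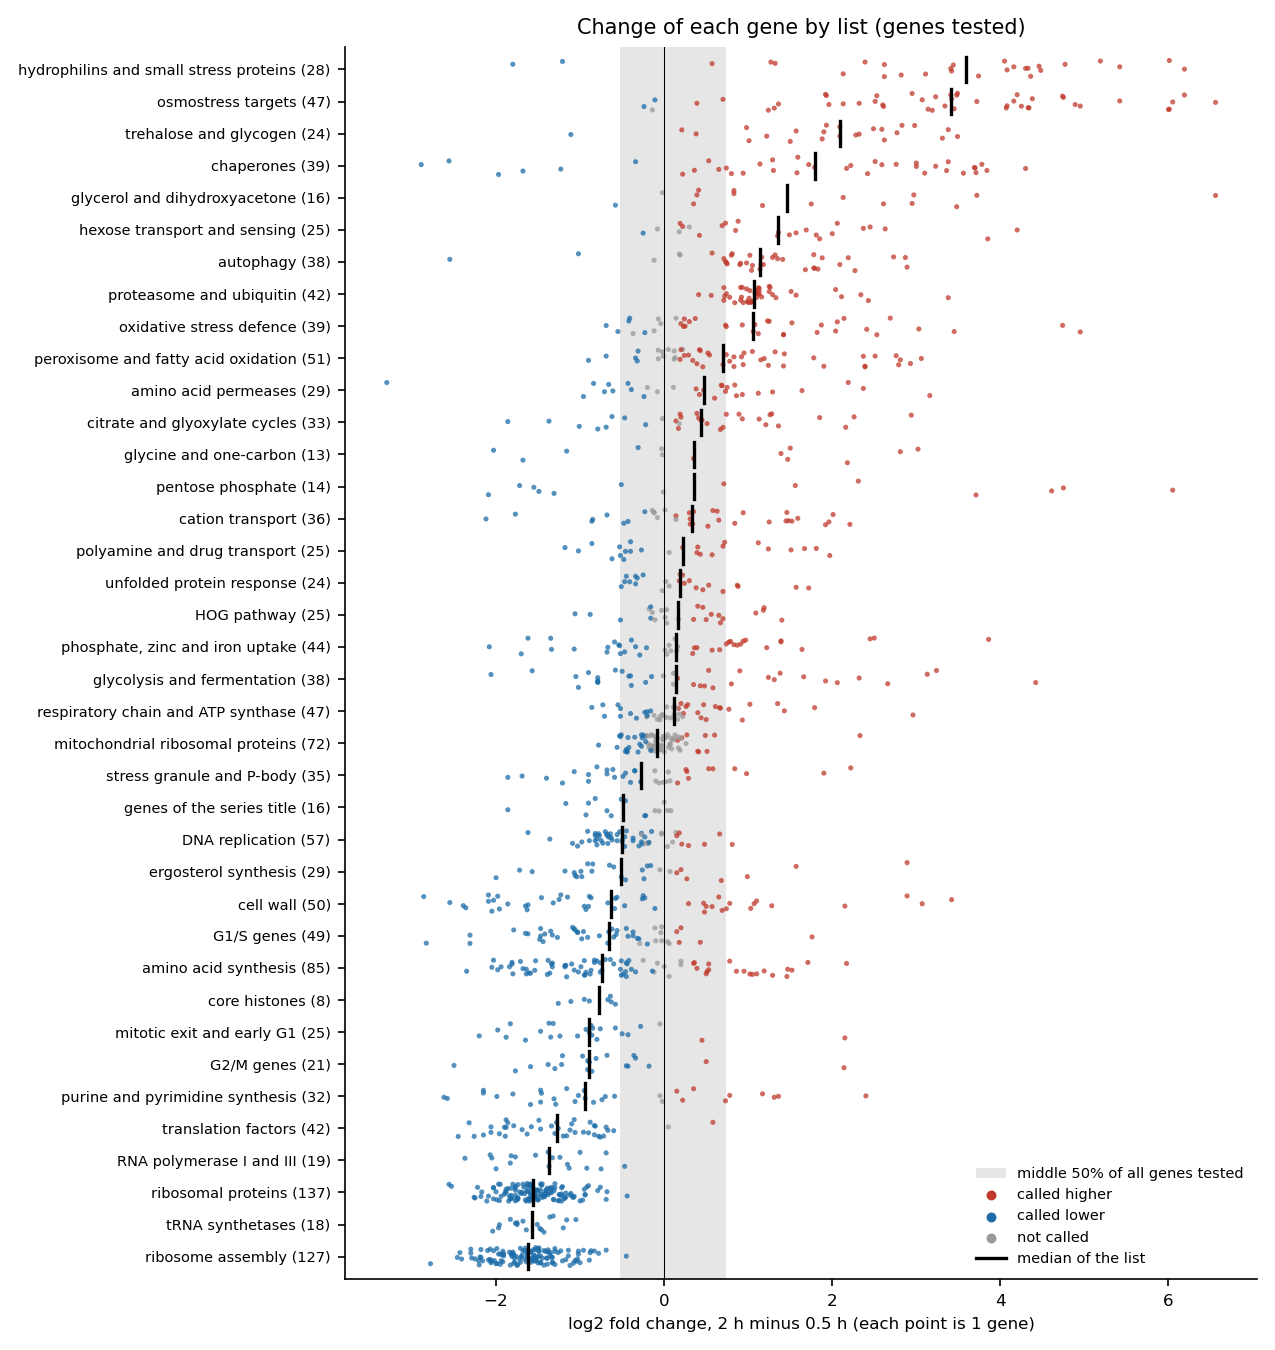
Log2 fold change of 2 h against 0.5 h (horizontal axis) of the members of each gene list, with a bar at each list's median, colour for the call and a grey band for the middle 50% of all genes tested. Osmostress targets and hydrophilins lie to the right with medians of 3.41 and 3.59, and ribosomal protein and ribosome assembly genes to the left with medians of −1.56 and −1.62.

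Chaperone genes mostly rose. Of 39, 33 rose and 6 fell (median 1.79), and their share of reads was 2.09% and 2.02% at 0.5 h and 6.16% and 5.98% at 2 h. HSP26, a small heat shock protein that holds unfolded proteins, had 84.8 and 90.3 CPM at 0.5 h and 1739 and 1719 CPM at 2 h (log2 fold change 4.30 ± 0.08 (SE), adjusted p = 3.9e-20). SSA3, a stress-induced cytosolic Hsp70, had 89.2 and 84.8 CPM at 0.5 h and 1268 and 1217 CPM at 2 h (log2 fold change 3.84 ± 0.06 (SE), adjusted p = 1.2e-20). HSP82, the inducible Hsp90, had 320 and 305 CPM at 0.5 h and 4255 and 3906 CPM at 2 h (log2 fold change 3.71 ± 0.06 (SE), adjusted p = 8.2e-21), and it can share reads with HSC82. None of the 3 overlapped between the times, which was so for 89.7% of all genes tested. Members that fell included the chaperones that sit on the ribosome, namely SSB1 (−2.89), its near copy SSB2 (−2.56), and the ribosome-associated pair SSZ1 (−1.97) and ZUO1 (−1.68).

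All 42 tested genes of the proteasome and ubiquitin list rose, 27 of them at least 2-fold, with a median of 1.07 and a range from 0.41 for RPN1 to 3.38 for UBI4. UBI4, the polyubiquitin gene that supplies ubiquitin under stress, had 116 and 102 CPM at 0.5 h and 1148 and 1102 CPM at 2 h (log2 fold change 3.38 ± 0.07 (SE), adjusted p = 3.5e-19). RPN4, which encodes the activator of proteasome genes, had 179 and 179 CPM at 0.5 h and 991 and 947 CPM at 2 h (log2 fold change 2.43 ± 0.06 (SE), adjusted p = 3.8e-18). PRE3, a catalytic subunit of the core particle, rose by 1.51 on the log2 scale. Groups did not overlap for UBI4 or RPN4, which was so for 89.7% of all genes tested. Autophagy genes rose in 33 of 38 and fell in 2 (median 1.14). ATG8, the ubiquitin-like protein that coats the growing autophagosome, had 16 and 18 CPM at 0.5 h and 124 and 127 CPM at 2 h (log2 fold change 2.87 ± 0.09 (SE), adjusted p = 9.5e-17), and ATG39, a receptor for nuclear autophagy, rose by 2.89. The list's share of reads was lower at 2 h, at 0.403% and 0.408% against 0.593% and 0.595%. Most of that share at 0.5 h was UTH1, a cell wall protein first linked to mitochondrial autophagy, which had 5568 and 5516 CPM at 0.5 h and 907 and 986 CPM at 2 h (log2 fold change −2.55 ± 0.05 (SE), adjusted p = 3.6e-19).

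The translation apparatus was mostly lower at 2 h. All 137 tested ribosomal protein genes fell, 125 of them at least 2-fold, with a median log2 change of −1.56 and a range from −2.56 to −0.44 for RPP0 and RPL22B. Their share of reads was 18.9% and 18.7% at 0.5 h and 7.52% and 7.78% at 2 h, beside 14.5% and 13.8% without stress. RPP0, the stalk protein of the large subunit, had 7388 and 7006 CPM at 0.5 h and 1221 and 1220 CPM at 2 h (log2 fold change −2.56 ± 0.05 (SE), adjusted p = 4.1e-20). The paralog gene RPL9A had 2034 and 1956 CPM at 0.5 h and 348 and 342 CPM at 2 h, with reads it can share with RPL9B. Every library of 2 h lay below both of 0.5 h for these genes, and the times did not overlap in 89.7% of all genes tested. All 127 ribosome assembly genes fell as well, 119 at least 2-fold (median −1.62), and among them GAR1, a core protein of H/ACA particles that pseudouridylate ribosomal RNA, had 1126 and 1080 CPM at 0.5 h and 190 and 208 CPM at 2 h (log2 fold change −2.46 ± 0.06 (SE), adjusted p = 3.3e-18). With library size alone as the scaling, the ribosomal protein and assembly lists kept the direction of their medians.

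**Figure D3:**
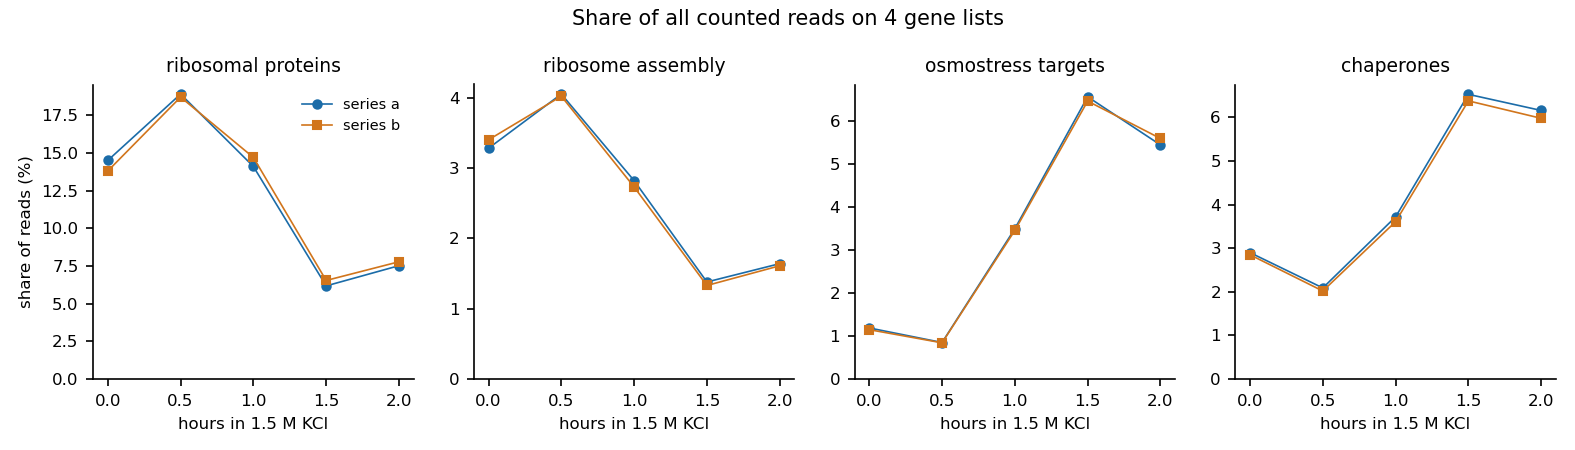
Percent of all counted reads on 4 gene lists in each library (vertical axes from 0) against hours in 1.5 M KCl, with 1 line for each replicate series. Ribosomal protein genes go from 18.9% and 18.7% at 0.5 h to 7.52% and 7.78% at 2 h, and osmostress targets from 0.851% and 0.844% to 5.45% and 5.60%.

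All 19 genes of RNA polymerases I and III fell (median −1.37), with RPA135, the second-largest subunit of polymerase I, at 924 and 900 CPM at 0.5 h and 178 and 176 CPM at 2 h (log2 fold change −2.37 ± 0.06 (SE), adjusted p = 2.5e-18). All 18 aminoacyl-tRNA synthetase genes fell at least 2-fold (median −1.57), with VAS1 for valine at 1726 and 1689 CPM at 0.5 h and 422 and 412 CPM at 2 h. Of 42 translation factors 40 fell, 28 at least 2-fold, and 1 rose. Fungal elongation factor 3, YEF3, had 7103 and 6804 CPM at 0.5 h and 1409 and 1385 CPM at 2 h (log2 fold change −2.32 ± 0.04 (SE), adjusted p = 7.7e-20), and TEF4, a subunit of the exchange factor of elongation factor 1, fell with a log2 change of −2.45. The factor that rose was DED1, the RNA helicase that helps ribosomes scan structured leaders, with 176 and 168 CPM at 0.5 h and 260 and 254 CPM at 2 h (log2 fold change 0.58 ± 0.05 (SE), adjusted p = 4e-09). The member that did not pass was TIF4632, 1 of the 2 eIF4G genes (0.05), while its paralog TIF4631 had 887 and 881 CPM at 0.5 h and 284 and 265 CPM at 2 h (log2 fold change −1.69 ± 0.06 (SE), adjusted p = 3.5e-15).

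Of 38 genes of glycolysis and fermentation 19 rose and 16 fell (median 0.14), shares near the 43.3% and 37.5% of all genes tested. HXK1, the hexokinase that yeast makes when glucose is short, had 69.4 and 77.5 CPM at 0.5 h and 1603 and 1566 CPM at 2 h (log2 fold change 4.42 ± 0.06 (SE), adjusted p = 3.8e-21). PDC1, the main pyruvate decarboxylase, had 23843 and 22704 CPM at 0.5 h and 5578 and 5587 CPM at 2 h (log2 fold change −2.06 ± 0.04 (SE), adjusted p = 7.2e-20). CDC19, the main pyruvate kinase, fell with a log2 change of −1.57. Times did not overlap in any of the 3, which was so for 89.7% of all genes tested. Of 25 hexose transport and sensing genes 21 rose and 1 fell (median 1.36). HXT5, a transporter of slow-growing cells, had 54.1 and 54 CPM at 0.5 h and 998 and 986 CPM at 2 h (log2 fold change 4.20 ± 0.07 (SE), adjusted p = 1.5e-20), and HXT3, a low-affinity transporter, had 1032 and 1054 CPM at 0.5 h and 873 and 886 CPM at 2 h, a small fall (−0.25) that became a rise of 0.12 with library size alone.

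Many of these steps are encoded by a pair of related genes. In most pairs set out here the first is used in growth and the second is known or thought to be used under stress or on other carbon sources. The levels of 24 such pairs were set beside each other per kilobase of coding sequence (CPM per kilobase), as a description with no test. In 20 pairs the second member was below the first in both 0.5 h libraries, and in 11 of these it was above the first in both 2 h libraries. The log2 ratio of the pair rose in both series in 19 pairs, by at least 1 in each, and fell in 4. Pairs and the order within them were set with earlier results of these data known, so these counts partly reflect that choice. Some first members rose themselves, such as the glucokinase gene GLK1 (3.13).

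The nonoxidative pentose phosphate pathway gave clear examples. TAL1, the main transaldolase, had 318 and 311 CPM per kilobase at 0.5 h and 314 and 309 at 2 h, while NQM1 had 19.2 and 16.8 and then 1176 and 1173. TAL1 itself did not pass the test (log2 fold change −0.01 ± 0.06 (SE), adjusted p = 0.82), but was called higher with library size alone (0.35). TKL1, the main transketolase, had 615 and 586 CPM per kilobase at 0.5 h and 181 and 182 at 2 h, and its paralog TKL2 had 20.9 and 24 and then 607 and 618. Which transketolase gene was the higher one was therefore exchanged between the times. In the oxidative branch the 6-phosphogluconate dehydrogenase genes GND1 and GND2 stood at 485 and 453 against 18.4 and 18.3 CPM per kilobase at 0.5 h, and at 192 and 186 against 232 and 245 at 2 h. For the lactonase genes the values were 154 and 150 for SOL3 against 16.9 and 15.5 for SOL4 at 0.5 h, and 99.4 and 111 against 367 and 412 at 2 h. Over all 14 pentose phosphate genes 7 rose and 6 fell (median 0.35), beside 43.3% and 37.5% of all genes tested. RKI1, the ribose-5-phosphate isomerase, was lowest at a log2 change of −2.09.

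Other pairs showed exchange or approach. Hexokinase gene HXK2 had 695 and 703 CPM per kilobase at 0.5 h and 347 and 341 at 2 h, and HXK1 had 47.6 and 53.1 and then 1099 and 1074. Phosphoglucomutase genes PGM1 and PGM2 stood at 64.8 and 68.0 against 34.5 and 33.6 CPM per kilobase at 0.5 h and at 29.3 and 31.5 against 385 and 381 at 2 h. The acetyl-CoA synthetase genes ACS2 and ACS1 stood at 169 and 168 against 12.5 and 11.8 at 0.5 h and at 87.3 and 81.5 against 97.2 and 90.2 at 2 h, close to each other. Glycerol-1-phosphatases GPP1 and GPP2 both rose and met at 2 h, from 1177 and 1153 against 204 and 198 CPM per kilobase to 2595 and 2643 against 2589 and 2695. Pyruvate kinase gene PYK2 rose (1.92) but at 49.5 and 49.6 CPM per kilobase stayed far below CDC19 at 2313 and 2360. Among the pairs whose ratio fell was UGP1, which makes UDP-glucose for trehalose and glycogen: it rose by 1.93, while its relative YHL012W did not pass (log2 fold change 0.15 ± 0.13 (SE), adjusted p = 0.31) except with library size alone (0.51).

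**Figure D4:**
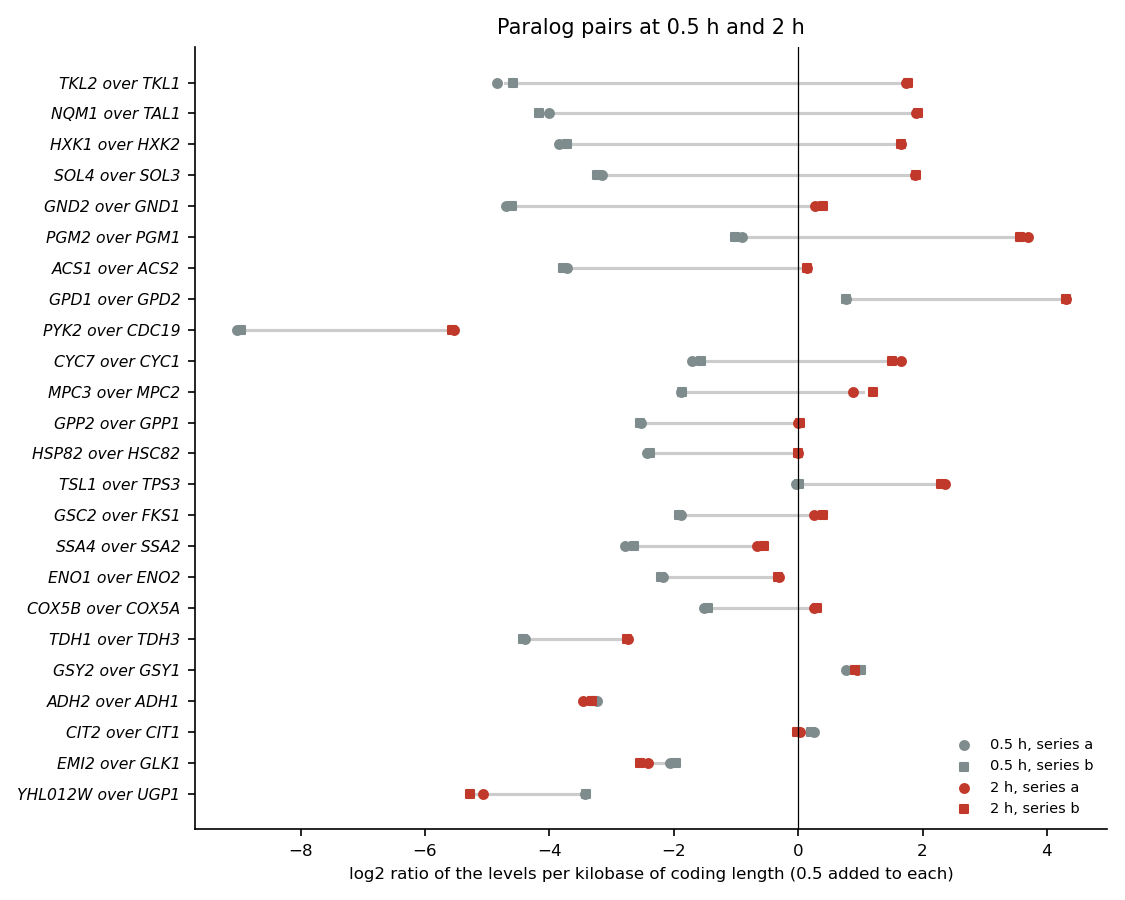
Log2 ratio of the levels per kilobase of coding length in 24 gene pairs (horizontal axis, 0.5 added to each level), at 0.5 h in grey and 2 h in red, with circles for series a and squares for series b. NQM1, TKL2, HXK1 and SOL4 are left of 0 at 0.5 h and right of it at 2 h, whereas PYK2 stays left at both times.

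Fatty acid oxidation and peroxisome genes rose in 37 of 51 and fell in 5 (median 0.70). CRC1, the mitochondrial carnitine carrier, had 3.48 and 4.2 CPM at 0.5 h and 32.7 and 33.1 CPM at 2 h (log2 fold change 3.06 ± 0.17 (SE), adjusted p = 2.5e-12), and POX1, the first enzyme of peroxisomal oxidation, rose by 2.93, while FAA4, which activates imported fatty acids, fell with a log2 change of −0.90. In the citrate and glyoxylate cycles 23 of 33 genes rose and 8 fell (median 0.44), with ACS1 at 2.94. Of 47 respiratory chain and ATP synthase genes 19 rose and 12 fell, beside 43.3% and 37.5% of all genes tested. Their median of 0.12 was near that of all genes. CYC7, the cytochrome c isoform of low oxygen and stress, had 5.34 and 7.05 CPM at 0.5 h and 47.1 and 51.9 CPM at 2 h (log2 fold change 2.96 ± 0.15 (SE), adjusted p = 4.6e-13), whereas the ATP synthase subunit gene ATP1 fell with a log2 change of −0.86. For 72 mitochondrial ribosomal protein genes 9 rose and 21 fell, and their median of −0.09 became 0.27 with library size alone.

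Biosynthesis was mostly lower. Of 85 amino acid synthesis genes 20 rose and 58 fell (median −0.74), with LEU9, a leucine pathway enzyme, at 324 and 325 CPM at 0.5 h and 63.5 and 64 CPM at 2 h and GLT1, glutamate synthase, at −2.05 on the log2 scale. SAM2, which makes S-adenosylmethionine, went the other way with 53.6 and 49.6 CPM at 0.5 h and 239 and 225 CPM at 2 h (log2 fold change 2.17 ± 0.06 (SE), adjusted p = 8.9e-17). In purine and pyrimidine synthesis 21 of 32 genes fell and 9 rose (median −0.94). URA7, the main CTP synthase, whose upstream stretch holds 2 PAC matches, had 499 and 492 CPM at 0.5 h and 75.1 and 84.1 CPM at 2 h (log2 fold change −2.62 ± 0.06 (SE), adjusted p = 4.7e-18), and GUA1, GMP synthase, fell with a log2 change of −2.58. ADE17, a late purine enzyme, had 77.6 and 80.6 CPM at 0.5 h and 425 and 413 CPM at 2 h (log2 fold change 2.40 ± 0.06 (SE), adjusted p = 4.7e-18). Of 13 glycine and one-carbon genes 7 rose and 4 fell (median 0.35): the subunits of the glycine cleavage system rose, with GCV1 at 3.02, GCV2 at 2.81 and GCV3 at 2.18, and the mitochondrial enzymes MIS1 and SHM1 fell with log2 changes of −2.03 and −1.68. Of 29 ergosterol genes 20 fell and 7 rose (median −0.51), with ERG11, the target of azole drugs, at 1349 and 1320 CPM at 0.5 h and 336 and 333 CPM at 2 h (log2 fold change −2.0 ± 0.05 (SE), adjusted p = 1.2e-17).

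Transport genes of the plasma membrane moved in both directions. PMA1, the proton pump that energizes the membrane, had 7342 and 7435 CPM at 0.5 h and 1703 and 1690 CPM at 2 h (log2 fold change −2.12 ± 0.04 (SE), adjusted p = 1.3e-19). Its times did not overlap, which was so for 89.7% of all genes tested. Over 36 cation transport genes 22 rose and 8 fell (median 0.33), and ENA1, a sodium pump with near-identical copies that can share its reads, rose by 1.92. CMK2, a calmodulin-dependent kinase induced by calcineurin signalling, had 50.2 and 46.1 CPM at 0.5 h and 213 and 226 CPM at 2 h (log2 fold change 2.21 ± 0.07 (SE), adjusted p = 1.1e-16). Its level was higher still without stress, at 312 and 310 CPM at 0 h. Of 29 amino acid permeases 17 rose and 9 fell (median 0.47), with the proline permease PUT4 at 18.8 and 19.8 CPM at 0.5 h and 169 and 177 CPM at 2 h (log2 fold change 3.16 ± 0.10 (SE), adjusted p = 2.5e-16) and CAN1 at the other end. In phosphate, zinc and iron uptake 20 of 44 rose and 17 fell (median 0.14), shares near the 43.3% and 37.5% of all genes. PHO89, a sodium-coupled phosphate importer, had 5.11 and 4.07 CPM at 0.5 h and 66.7 and 63.8 CPM at 2 h (log2 fold change 3.86 ± 0.14 (SE), adjusted p = 1.5e-15), and ZRT1, the high-affinity zinc importer, had 1409 and 1329 CPM at 0.5 h and 328 and 320 CPM at 2 h (log2 fold change −2.08 ± 0.05 (SE), adjusted p = 1.2e-17). Polyamine and drug transport genes rose in 13 of 25 and fell in 11 (median 0.22), to be read beside the same shares of all genes.

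Cell cycle genes were lower at 2 h in most phases. Of 49 G1/S genes 36 fell and 5 rose (median −0.66), of 57 replication genes 41 fell and 7 rose (median −0.50), and all 8 core histone genes fell (median −0.78). POL30, the sliding clamp PCNA, had 258 and 221 CPM at 0.5 h and 78.7 and 76.6 CPM at 2 h (log2 fold change −1.62 ± 0.08 (SE), adjusted p = 5.8e-13), and RNR1, the large subunit of ribonucleotide reductase, changed by −2.31. RNR3, the damage-inducible copy of RNR1, had 8.59 and 12.6 CPM at 0.5 h and 43.1 and 34.1 CPM at 2 h (log2 fold change 1.76 ± 0.16 (SE), adjusted p = 4e-09). Of 21 G2/M genes 19 fell and 2 rose (median −0.89), and of 25 genes of mitotic exit and early G1 22 fell and 2 rose (median −0.89). CLB1, a mitotic cyclin, had 192 and 197 CPM at 0.5 h and 36.3 and 33.4 CPM at 2 h (log2 fold change −2.50 ± 0.07 (SE), adjusted p = 6.2e-17), and its relative CLB2 fell with a log2 change of −1.77. BUB1, the spindle checkpoint kinase, stood out from the G2/M list with 34.6 and 35.4 CPM at 0.5 h and 156 and 153 CPM at 2 h (log2 fold change 2.14 ± 0.08 (SE), adjusted p = 1.8e-15). The share of cells in each phase was not measured.

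Of 50 cell wall genes 33 fell and 17 rose (median −0.63). SPI1, a wall protein induced in stationary phase, had 78.3 and 71.8 CPM at 0.5 h and 755 and 836 CPM at 2 h (log2 fold change 3.42 ± 0.08 (SE), adjusted p = 1e-18), CWP1, a mannoprotein, rose by 3.07, and PIR3, a wall protein linked to glucan, rose by 2.15, whereas SCW4, a glucanase-like wall protein, had 1329 and 1488 CPM at 0.5 h and 186 and 200 CPM at 2 h (log2 fold change −2.86 ± 0.08 (SE), adjusted p = 3.5e-17). The unfolded protein response list had 13 of 24 higher and 8 lower (median 0.19), beside 43.3% and 37.5% of all genes tested. KAR2, the chaperone of the endoplasmic reticulum, had 496 and 488 CPM at 0.5 h and 1659 and 1584 CPM at 2 h (log2 fold change 1.72 ± 0.05 (SE), adjusted p = 8.1e-17), and HAC1, whose spliced messenger RNA switches the response on, had 469 and 488 CPM at 0.5 h and 328 and 341 CPM at 2 h (log2 fold change −0.51 ± 0.06 (SE), adjusted p = 1e-07). Splicing of HAC1 was not measured.

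The title of the series names the polymerase delta subunit Pol32 and RNase H1 in the formation of stress granules, which are clusters of stalled messenger RNA and protein. POL32 had 43 and 40.3 CPM at 0.5 h and 24.3 and 22.9 CPM at 2 h (log2 fold change −0.82 ± 0.11 (SE), adjusted p = 1.3e-06), and RNH1, the RNase H1 gene, had 66.9 and 58.1 CPM at 0.5 h and 43.1 and 43.1 CPM at 2 h (log2 fold change −0.51 ± 0.08 (SE), adjusted p = 1.5e-05). For both the 2 h libraries lay below the 0.5 h libraries, and the times did not overlap in 89.7% of all genes tested. The call of RNH1 was lost with library size alone (−0.15, adjusted p = 0.096). The RNase H2 subunit genes RNH201, RNH202 and RNH203 changed by −0.93, −0.68 and −1.17, and POL3, the catalytic subunit of polymerase delta, by −0.63, all called. The third subunit gene, POL31, changed by −0.23 (adjusted p = 0.016). It was not called without the series b library of 2 h (−0.18) or of 0.5 h (−0.16), nor with upper-quartile factors (−0.17), and its sign turned with library size alone (0.13). The transcription export genes of the THO complex, HPR1, THO2, MFT1 and THP2, did not pass, with log2 changes from −0.11 to 0.08, whereas HPR1 (0.44), THO2 (0.40) and MFT1 (0.36) were called higher with library size alone. Among the other genes of the list, SEN1 (−0.22) turned in sign with library size alone (0.14) and was at −0.17 without the 2 h library of series b. The call of PIF1 (−0.46) was lost with library size alone (−0.10). In the whole list of 16 genes 11 fell and the others did not pass (median −0.49), beside 37.5% of all genes called lower. DESeq2's Wald test made the same calls in these genes.

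Among 35 stress granule and P-body genes 18 fell and 10 rose, and their median of −0.28 became 0.08 with library size alone. PAB1, the poly(A) binding protein that marks stress granules, had 1467 and 1466 CPM at 0.5 h and 406 and 405 CPM at 2 h (log2 fold change −1.86 ± 0.05 (SE), adjusted p = 6.6e-17). PUB1, another core granule protein, had 513 and 470 CPM at 0.5 h and 256 and 269 CPM at 2 h (log2 fold change −0.90 ± 0.06 (SE), adjusted p = 1.5e-11). PBP1, the yeast ataxin-2 homolog, had 377 and 357 CPM at 0.5 h and 368 and 340 CPM at 2 h (log2 fold change −0.06 ± 0.06 (SE), adjusted p = 0.37), its times overlapped, and its sign turned with library size alone (0.31). EDC2, an activator of decapping, had 30.9 and 30.2 CPM at 0.5 h and 130 and 149 CPM at 2 h (log2 fold change 2.22 ± 0.10 (SE), adjusted p = 7.1e-14), and RIE1, an RNA-binding protein, rose by 1.9. At 2 h RIE1 had 369 and 353 CPM, still below its 525 and 537 CPM at 0 h. Granules themselves were not measured.

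The strain label was checked against mating type genes. The 6 MATa markers were present at both times and all fell (median −2.04): STE2, the alpha-factor receptor of MATa cells, had 945 and 930 CPM at 0.5 h and 360 and 352 CPM at 2 h (log2 fold change −1.40 ± 0.05 (SE), adjusted p = 4.2e-15). Together the 4 MATalpha markers were low and rose (median 1.17), at 0.00696% and 0.00697% of reads at 0.5 h and 0.0164% and 0.0158% at 2 h. The call of MF(ALPHA)2 (0.70) was lost without the 2 h library of series b (0.56). SAG1 was not below every MATa marker. It had 70.3 and 69.5 CPM at 2 h, where AGA2 had 15.7 and 18.3, MFA1 40.8 and 50.6, and MFA2 42.9 and 64.9. STE2, BAR1 and STE6 were above SAG1 in both 2 h libraries. STE3, the receptor of the other mating type, had 13.9 and 11.7 CPM at 0.5 h and 48.4 and 43.2 CPM at 2 h (log2 fold change 1.85 ± 0.13 (SE), adjusted p = 5.3e-11). The part of other cells in these values was not tested. Of 6 meiosis markers 5 rose (median 1.33), though the call of SPS1 was lost without the series b library of 2 h (0.70) or of 0.5 h (0.65) and that of NDT80 with DESeq2's Wald test (0.31). The medians within series a and b were 0.96 and 1.51. The markers that rose included IME2, a meiotic kinase gene, with 14.6 and 13 CPM at 0.5 h and 73 and 65.8 CPM at 2 h (log2 fold change 2.33 ± 0.12 (SE), adjusted p = 3.2e-13). Together the MATa markers took 0.226% and 0.248% of reads at 0.5 h and 0.083% and 0.0863% at 2 h. That was more than the MATalpha markers took together at each time, and none of the 10 mating type markers was at 0.

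The motifs shown above were counted in the 250 bases before the start codon of 5974 genes, on both strands, and described with no test. STRE (CCCCT) was present before 18.7% of all genes, 33.3% of those at least 2-fold higher and 10.7% of those at least 2-fold lower. Among osmostress targets 24 of 47 (51.1%) held it. Genes with an STRE had a median change of 0.52 and those without −0.02. The window of SIP18, GRE1, HSP26 and HXK1 holds no STRE, which says only that these letters are not in the window. TAL1 holds an STRE and did not pass, and its paralog NQM1 holds 2 and rose.

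PACE (GGTGGCAAA) was rare, before 1.12% of all genes and 3.64% of those at least 2-fold higher, but stood before 30 of 42 (71.4%) proteasome and ubiquitin genes. The 67 tested genes with PACE had a median change of 1.04, beside 0.06 for those without. Since 30 of these 67 are on the proteasome and ubiquitin list, where all genes rose, this median partly restates that result. PAC (GATGAG) was before 17% of all genes, 12.8% of those at least 2-fold higher and 38.6% of those at least 2-fold lower. It stood before 116 of 127 (91.3%) ribosome assembly genes, 50 of which had at least 2 matches, and before only 14 of 137 (10.2%) ribosomal protein genes, although the medians of these lists were alike at −1.62 and −1.56. Genes with PAC had a median change of −0.41 and those without 0.13. MCB (ACGCGT) was before 2.91% of all genes, 22 of 49 (44.9%) G1/S genes and 26 of 57 (45.6%) replication genes, and genes with it had a median of −0.30 beside 0.08. The heat shock element in its short form (TTCNNGAA) was before 19 of 39 (48.7%) chaperone genes and 11.1% of all genes, yet before 11.9% of those at least 2-fold higher and 11.5% of those at least 2-fold lower, and its medians were 0.11 with and 0.07 without. None of the 5 motifs contains another.

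**Figure D5:**
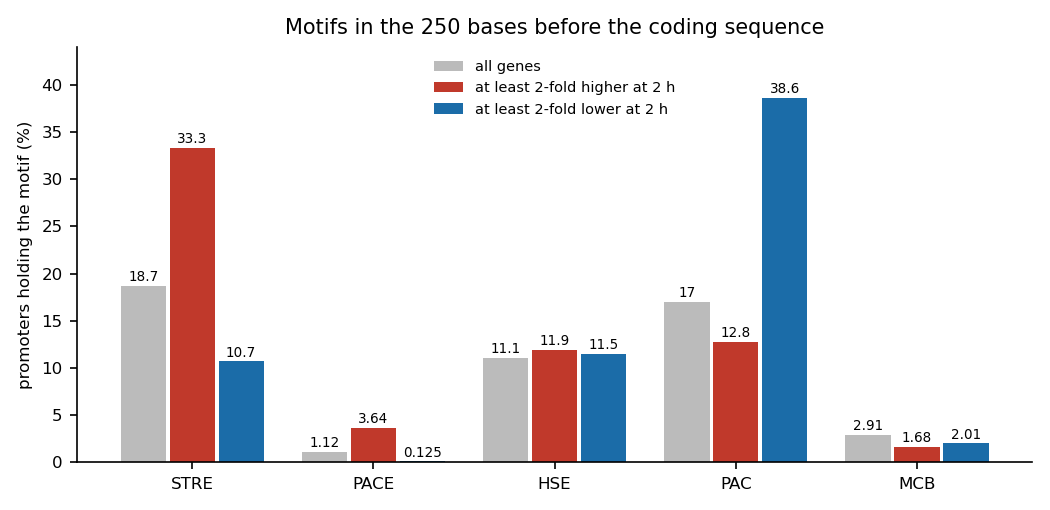
Percent of genes with each motif in the 250 bases before the start codon (bars from 0), for all genes and for genes at least 2-fold higher or lower at 2 h. STRE goes from 18.7% to 33.3% among genes that were higher, and PAC from 17% to 38.6% among genes that were lower, while the heat shock element stays between 11.1% and 11.9%.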

How the data were processed

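The authors deposited reads per coding sequence for each library. Of these estimated counts 2.77% end in 0.5. Per the submitters' processing notes the build was R64. The aligner, the counter and strandedness (not given in the sources used here) are unknown, so that reads of overlapping, antisense or near-identical genes cannot be told apart. Per the labels' protocols, polyadenylated RNA was made into randomly primed cDNA. Of 65885 lines, 4693 identical repeats and 1302 gene and mRNA lines were left out, which left 5989 coding sequences in each library.

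Counts were rounded to whole numbers, scaled by TMM and fitted over all 10 libraries with edgeR 4.0.16 (R 4.3.3) and 1 term per time. The contrast of 2 h against 0.5 h was tested two-sided by the quasi-likelihood F-test in 5943 genes that passed filterByExpr, and the Benjamini-Hochberg adjustment ran over all of them. Genes were called at an adjusted p below 0.05. The SE is the log2 fold change divided by the square root of F. The procedure was run on simulated data in which 200 genes were changed, far fewer than the 4802 called here. Most genes did not change there, so it could not check the scaling. DESeq2 1.42.0 was an alternative beside other scalings, filters and sets of libraries.

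Named genes are the 12 largest rises and 12 largest falls among called genes whose groups did not overlap and whose higher group had a mean of at least 10 CPM, the 2 largest changes each way in each gene list, the members of the pairs, the genes tied to the title and the mating type markers. Others were named for their role after their values were seen. The members and lists were chosen with earlier results of these data known. The letters name the time series of the design. The fit has no term for them, and a fit with them as a block was an alternative. Deviations of series a at 0.5 h and 2 h correlated at 0.12, and over all pairs of times from −0.113 to 0.313.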

Additional observations from a re-analysis of the deposited data

Results flagged for a closer look

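The 0.5 h library of series a held 162 reads of URA3, a gene that BY4741 lacks, while the 0.5 h library of series b held 0. This signal lies outside the genes compared, and the other 9 libraries held at most 5 reads each. The value in CPM was 37.6 in that library and 1.05 in the 2 h library of the same series. The source of the reads was not tested.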

How the results depend on the processing

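The number of genes called ranged from 4352 with DESeq2's Wald test to 5000 with library size alone, beside 4802, over 14 alternatives. Leaving out 1 of the 4 libraries gave 4426 to 4629. With the series letter as a replicate block 4822 genes were called, 4793 of them also called without it, and no call changed among 211 named genes tested. The 24 genes of largest change were called in 1 direction under all 14 alternatives. The share of called genes that were higher, 53.5%, was 51.2% with only the 4 libraries compared, 50.1% with DESeq2 size factors, 56.5% with upper-quartile factors, 71% with library size alone and 49.9% with DESeq2's Wald test.

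Library size alone moves the median of all genes up by 0.36. Under it the sign turned for the medians of mitochondrial ribosomal proteins (0.27), stress granule and P-body genes (0.08) and reading frames antisense to ribosomal RNA (0.29), and for the log2 changes of CHA1 (0.12), SED1 (0.25), HXT3 (0.12), POL31 (0.13), SEN1 (0.14), PBP1 (0.31), TAR1 (0.01), TAL1 (0.35) and COX5A (0.03). FIG1 (−0.27, not called) was at 1.55 without the 0.5 h library of series a and at −1.31 without that of series b, called both times. Of these 211, 187 kept their call, and where called their direction, under every alternative in which they were tested. With 2 libraries at each time and 3372373 reads in the shallowest, changes of genes with few reads are the least certain.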
